A study of Mus musculus with 15 samples.

Results

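Genes of glycolysis and of the response to low oxygen were followed through the knockdown of Tet1 or Tet2 in mouse embryonic stem cells (ESCs). The 36 genes were chosen by name, for their place in the pathway, but with earlier results of these data known. All 36 were found among the 26061 genes of the expression table. All 36 also passed the filter on low values (a value above the table's minimum in at least 5 of 15 libraries), as did 19490 genes in all. The cells were E14 ESCs, a line of 129/Ola origin, grown without feeders in serum and LIF. Each culture carried a lentiviral short hairpin RNA (shRNA), which was either a non-targeting control (shScr) or directed against Tet1 (shTet1) or Tet2 (shTet2), and was selected with puromycin for 3 days. Total RNA was depleted of rRNA and sequenced in 5 libraries per group. Each target had 1 hairpin, so that an effect of the gene and an effect of the hairpin sequence cannot be told apart. The labels do not say whether the libraries of a group came from separate cultures, and p-values measure the spread between these libraries, which may be technical. No group was labelled as treated with low oxygen.

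Glycolysis splits glucose into pyruvate, and ESCs are known to run it at a high rate also when oxygen is plentiful. Glucose enters through transporters (Slc2a1, Slc2a3), is phosphorylated by hexokinases and committed by phosphofructokinase, and the pyruvate formed is either reduced to lactate and exported or passed on to the mitochondria, an entry that pyruvate dehydrogenase kinases close. Oxygen reaches these genes through the transcription factor subunit HIF1α (Hif1a). Prolyl hydroxylases (Egln1, Egln3) mark it for destruction while oxygen is present, and when oxygen is short it accumulates and raises the transcription of most glycolytic genes, of Vegfa, Bnip3 and Ddit4, and of the hydroxylase gene Egln3 itself. TET1 and TET2 oxidise 5-methylcytosine in DNA, a step in its removal.

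Values are the deposited variance-stabilised expression values, which lie on a scale close to log2 for well-covered genes, and a difference of 1 is close to a doubling. The table's minimum of 4.25 stands for 0 reads. The libraries held 15258291 to 35432425 reads in genes. In 4 of the 15 libraries (shScr replicate 4, shTet1 replicates 3 and 4, and shTet2 replicate 4) olfactory and vomeronasal receptor genes took 53.3 to 63.4 RPM (reads scaled to a common total of gene reads), against 9.43 to 26.4 in the other 11, and counts are therefore also given without these 4. Tet1 stood at 27.8% of its shScr level in shTet1 and Tet2 at 26.6% in shTet2 (ratio of mean normalised reads), so the labels fitted the targeted genes. All 10 ESC markers had reads in every library, with a summed level of 2850 to 4150 RPKM (RPM per kilobase of exon).

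The genes covered a wide range of levels, compared here per length in shScr as RPKM (mean ± SD, n = 5). Pkm2, which encodes the pyruvate kinase of the last step, was the highest of the 36 at 848 ± 287. The aldolase gene Aldoa stood at 277 ± 67.0, whereas its paralogue Aldoc stood at 2.03 ± 0.507. For hexokinase, the entry enzyme, Hk2 was at 51.6 ± 17.9 and Hk1 at 2.95 ± 1.22. Each of these pairs was separated by far more than the spread of either gene. Phosphofructokinase was represented mainly by Pfkp (62.9 ± 14.4) and Pfkl (38.3 ± 13.1), whose ranges over libraries overlapped, with Pfkm at 7.15 ± 1.36. Lactate dehydrogenase subunits were at 134 ± 53.3 for Ldha and 37.4 ± 14.6 for Ldhb. Their ranges over libraries overlapped, as Ldha began at 55.76 and Ldhb reached 59.15. Among the exporters of lactate, Slc16a1 (46.3 ± 10.4) was above Slc16a3 (5.70 ± 3.73) in every library. The glucose transporters Slc2a3 (124 ± 23.2) and Slc2a1 (99.8 ± 43.1), the pyruvate dehydrogenase kinases Pdk3 (25.7 ± 3.47) and Pdk1 (22.3 ± 6.12), and the hydroxylases Egln3 (3.28 ± 2.10) and Egln1 (3.23 ± 0.889) were pairs that did not differ beyond their spread. Pfkfb3 (1.05 ± 0.201) was above Pfkfb4 (0.343 ± 0.109). Both make fructose 2,6-bisphosphate, the activator of phosphofructokinase, and were near the bottom of the order together with Eno2 (0.489 ± 0.168), the paralogue of Eno1 (51.2 ± 11.5).

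**Figure D1:**
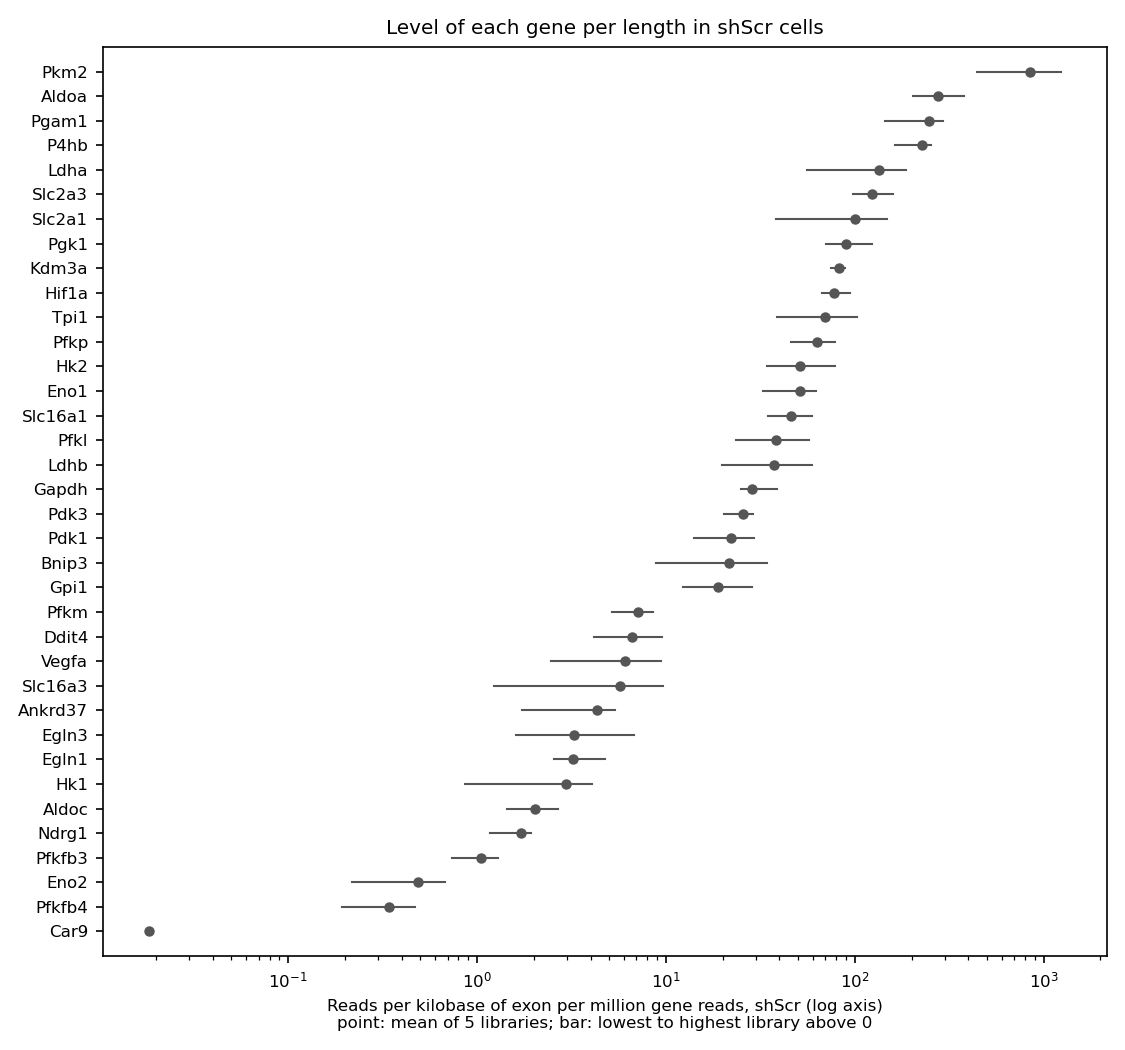
Level of each of the 36 genes in shScr cells as RPKM, on a log axis. Points are means of 5 libraries and bars run from the lowest to the highest library above 0. Pkm2 is highest at 848 and Car9, with reads in a single shScr library, is lowest.

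Some of these levels are uncertain, because 6 of the 36 transcripts have near-identical copies of much of their length elsewhere in the genome (at least 98% identity over stretches that hold 50 or more identical bases), where the authors' alignment placed a read at 1 of several equal positions. The copies covered 95.7% of the Pgk1 transcript, 94.7% of Pgam1, 88.2% of Gapdh (31 other loci), 85.6% of Eno1, 65.1% of Gpi1 and 48.8% of Bnip3. The table's row for Gm5506, a copy of Eno1, held 15172 mean normalised reads, more than the 6474 of Eno1 itself. Antisense overlap touched 28.9% of the exon bases of Ankrd37, 16.5% of those of Gpi1 and 15.6% of those of Slc16a3, and the use of strand in the authors' counting was not stated. Car9, a carbonic anhydrase gene known as a strong HIF target, held 0 to 11 reads. It was at 0 in 7 libraries, 4 of them in shScr, where a count of 0 allows up to 3 reads per library for counting error alone.

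Knockdown of Tet1 was compared with shScr first. No member passed the adjusted threshold of 0.05 (limma, Benjamini-Hochberg over all 19490 genes), where 0.0718% of all genes did, and the smallest adjusted p among the 36 was 0.12. With an unadjusted p under 0.05 there were 8 members (Hk1, Gpi1, Pfkm, Ldhb, Slc16a1, Egln1, Kdm3a and Ndrg1), against 11.8% of all genes. The median difference over the 36 was 0.17, with 30 above 0, and over all genes it was 0.01, with 52.4% above 0. Replicates with the same number deviated together in these groups (correlations of 0.374 to 0.657 over 5 pairs). Correlations between replicates of different number were not computed. With the replicate number as a block 8 members passed, beside 4.80% of all genes. Gpi1, Pfkm, Ldhb, Slc16a1, Pdk1, Egln1 and Egln3 were higher in shTet1 and Kdm3a was lower. Without the 4 libraries rich in receptor reads, no member passed limma's adjusted threshold with or without the block, in a fit that had 11 libraries left and in which 0 of 19490 genes passed with the block and 1 without it. The differences under the block were then 0.85 for Pfkm, 1.15 for Ldhb, 0.52 for Slc16a1 and -0.66 for Kdm3a. With an unadjusted p under 0.05 there were 12 members with the block (15.3% of all genes) and 9 without it (10.9%).

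Ldhb, whose subunit favours the conversion of lactate back to pyruvate, had the smallest p in this comparison. Its gene lies at chr6:142438769-142456477 (minus strand) in mm9, the build of the files (GENCODE M1 annotation, as for the genes below). It stood at 10.02, 9.58, 10.57, 10.96 and 10.45 in shScr replicates 1 to 5, and at 11.62, 11.62, 11.01, 11.94 and 10.61 in shTet1. All shTet1 libraries but replicate 5 lay above the whole shScr range. The difference was 1.04 ± 0.27 (SE; unadjusted p = 0.00100, adjusted p = 0.12; exact permutation p = 0.0159), with an adjusted p of 0.0133 under the block. The limma adjusted p was 0.0392 without shTet1 replicate 5 and 0.312 without shTet1 replicate 2. The difference was 1.82 within replicates 1 and 2 and 0.52 within replicates 3 to 5.

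Pfkm encodes the muscle form of phosphofructokinase and lies at chr15:97923020-97962878 (plus strand). Its values were 9.23, 9.24, 8.95, 8.53 and 9.16 in shScr and 10.24, 10.44, 9.51, 9.58 and 9.59 in shTet1. The groups did not overlap, and the difference was 0.85 ± 0.23 (SE; limma adjusted p = 0.131, under the block 0.00341). The exact permutation p of 0.00794 is the smallest that 5 against 5 libraries allow.

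Slc16a1, the transporter that carries lactate and pyruvate across the plasma membrane, was at 12.24, 11.89, 12.37, 11.67 and 12.57 in shScr, and at 12.51, 12.69, 12.78, 12.61 and 13.13 in shTet1. Replicate 5 was the highest library in both groups, and each shTet1 library lay above the shScr library of its number. The difference was 0.60 ± 0.17 (SE; limma adjusted p = 0.148, under the block 0.00609; exact permutation p = 0.0159). It was 0.53 within replicates 1 and 2 and 0.64 within replicates 3 to 5.

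Kdm3a, a histone demethylase gene that HIF is known to activate, was the member that was lower in shTet1. The gene lies at chr6:71538968-71582899 (minus strand). It stood at 12.98, 13.34, 13.16, 13.16 and 13.18 in shScr and at 12.11, 12.24, 12.81, 12.64 and 13.00 in shTet1. Replicates 1 and 2 were the lowest of the shTet1 libraries, and replicate 5 reached the shScr range. Kdm3a differed by -0.60 ± 0.17 (SE; limma adjusted p = 0.153, under the block 0.0133; exact permutation p = 0.0159), by -0.98 within replicates 1 and 2 and by -0.35 within replicates 3 to 5.

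The oxygen-sensing genes showed both directions. Egln1, the main HIF prolyl hydroxylase, was at 8.65, 8.13, 8.14, 7.82 and 8.06 in shScr and at 9.61, 9.40, 8.63, 8.52 and 8.40 in shTet1, a difference of 0.75 ± 0.23 (SE; limma adjusted p = 0.173, under the block 0.00668). It was higher in shTet1 in 5 of 5 pairs. For Egln3 the difference of 0.96 ± 0.53 (SE) had a limma adjusted p of 0.51, and of 0.0174 under the block. Its shTet1 libraries ran from 7.41 to 10.55, with replicates 1 and 2 far above the others. Hif1a itself differed by -0.25 ± 0.12 (SE) and was lower in 5 of 5 pairs (limma adjusted p = 0.44, under the block 0.104). P4hb, the protein disulphide isomerase that is also a subunit of collagen prolyl hydroxylase, differed by -0.07 ± 0.18 (SE).

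In the remaining roles, Pdk1, a kinase that shuts pyruvate dehydrogenase off, differed by 0.49 ± 0.24 (SE; adjusted p = 0.0268 under the block, 0.434 without), and Gpi1, the isomerase between the 2 hexose phosphates, by 0.52 ± 0.18 (SE; 0.0235 under the block, 0.24 without). Slc2a1, the glucose transporter of most growing cells, differed by -0.01 ± 0.37 (SE), with a 95% interval from -0.79 to 0.77 that leaves room for a difference in either direction. Much the same held for Slc16a3 (0.01, interval -1.14 to 1.16) and Bnip3 (0.10, interval -0.89 to 1.09), a mitophagy receptor gene. Intervals of Gapdh (-0.14 to 0.43) and Pgk1 (-0.39 to 0.58), enzymes of the middle of the pathway, were narrower.

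Knockdown of Tet2 gave no member past the adjusted threshold either, where 0.390% of all genes passed, and the smallest adjusted p among the 36 was 0.141. There were 5 members with an unadjusted p under 0.05 (Hk1, Pfkm, Pgam1, Ldhb and Ddit4), against 11.6% of all genes. The median difference over the 36 was 0.18 and over all genes 0.04. This comparison and the one above share the shScr libraries, so their values are not independent of each other. Without the 4 libraries rich in receptor reads, 1 member (Pgam1) passed, with an adjusted p of 0.0418, beside 0.0667% of all genes.

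Pgam1, the phosphoglycerate mutase of the lower part of glycolysis, was lower in shTet2. Its gene lies at chr19:41986361-41993154 (plus strand). It was at 13.50, 13.61, 13.37, 12.45 and 13.40 in shScr replicates 1 to 5 and at 12.63, 12.70, 12.74, 11.64 and 12.73 in shTet2. Replicate 4 was the lowest library of both groups, far from the other 4, and the shTet2 values otherwise lay below all of the other shScr values. The difference was -0.78 ± 0.22 (SE; limma adjusted p = 0.141; exact permutation p = 0.0397), a ratio of 0.581 in mean normalised reads. Without shScr replicate 4 it was -0.98, with a limma adjusted p of 0.0412. Without shTet2 replicate 4 it was -0.57, with a limma adjusted p of 0.296. Since 94.7% of its transcript has copies, its row may hold reads of the copies, and Gm8910, a copy with a row of its own, differed by -0.72 ± 0.23 (SE).

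Ddit4, which encodes REDD1, an inhibitor of mTORC1 that is induced by low oxygen and other stresses, was at 8.53, 7.79, 8.04, 8.55 and 7.63 in shScr and at 9.42, 9.40, 8.92, 9.62 and 8.22 in shTet2. All shTet2 libraries but replicate 5 lay above the shScr range. The difference was 1.01 ± 0.30 (SE; limma adjusted p = 0.154; exact permutation p = 0.0238), a ratio of 2.21 in mean normalised reads. It was 1.25 within replicates 1 and 2 and 0.85 within replicates 3 to 5.

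For Ldhb, the shTet2 libraries were at 11.02, 11.29, 10.68, 11.66 and 10.74, above shScr by 0.76 ± 0.27 (SE; limma adjusted p = 0.242; exact permutation p = 0.0317). Hk1 was at 9.25, 7.71, 9.47, 9.58 and 9.45 in shScr and at 9.80, 10.09, 9.80, 9.90 and 9.47 in shTet2. Its shScr replicate 2 stood far below every other library, of which the next was at 9.25. The difference of 0.72 ± 0.32 (SE; limma adjusted p = 0.388; exact permutation p = 0.0238) was 0.37 without that library.

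The other HIF targets were spread around 0. Vegfa, the endothelial growth factor gene, differed by -0.25 ± 0.30 (SE), Ndrg1, a stress-response gene, by 0.23 ± 0.23 (SE), Ankrd37 by 0.32 ± 0.31 (SE) and Bnip3 by 0.10 ± 0.47 (SE). Hif1a differed by -0.26 ± 0.12 (SE; limma adjusted p = 0.432). Among enzymes, Gapdh differed by 0.02 ± 0.14, Pkm2 by -0.07 ± 0.25 and Pgk1 by 0.31 ± 0.23 (± SE).

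**Figure D2:**
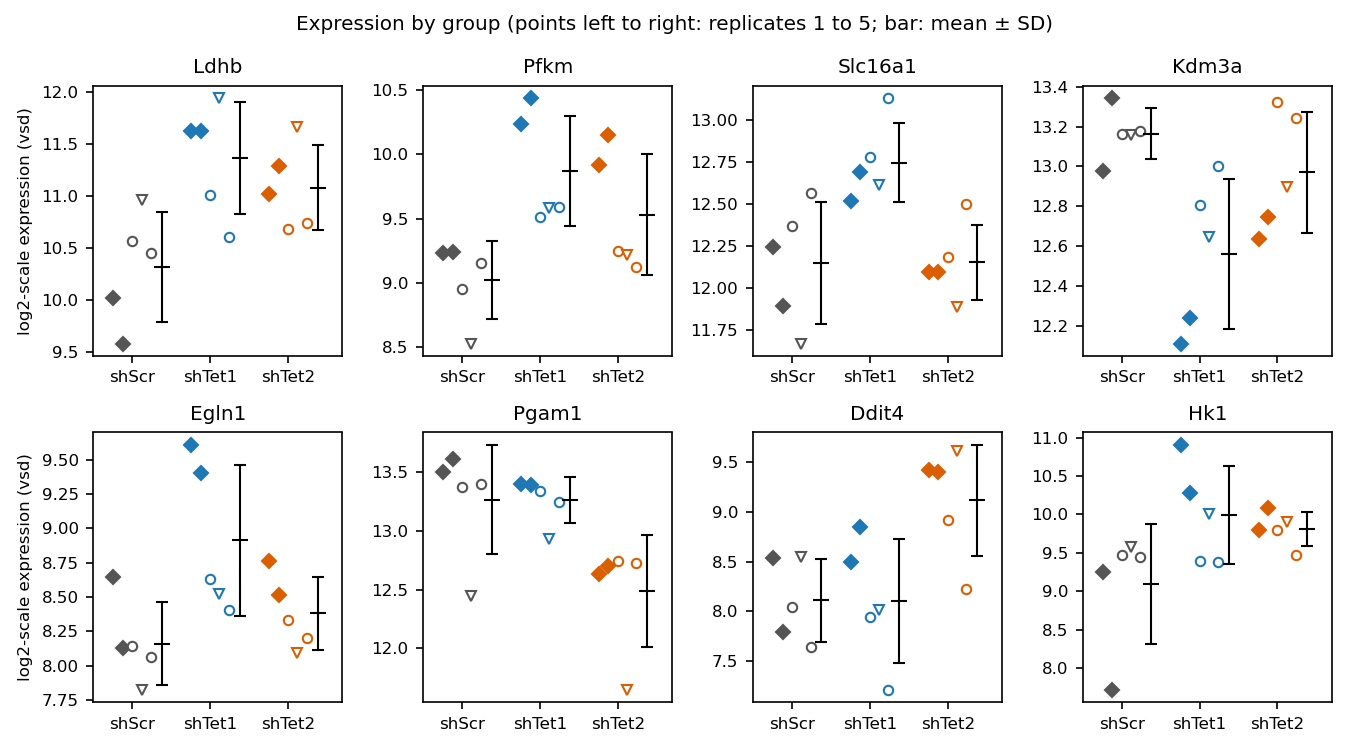
Variance-stabilised expression (log2 scale) of 8 genes in the 15 libraries. Points run from replicate 1 to 5 within a group (filled diamonds: replicates 1 and 2; open triangles: replicate 4; open circles: replicates 3 and 5), and bars give the mean ± SD of 5 libraries. Pgam1 is lower in shTet2 than in the other groups apart from replicate 4 of shScr, and Ddit4 is higher in shTet2.

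The third comparison set shTet2 directly against shTet1. No member passed the adjusted threshold, where 4.24% of all genes did. The smallest adjusted p was 0.0576, and the median difference over the 36 was -0.11 (0.01 over all genes). An unadjusted p under 0.05 was reached by 6 members (Pgam1, Slc16a1, Egln1, Ddit4, Kdm3a and Vegfa), against 15.7% of all genes. Same-numbered replicates of the knockdowns deviated together (0.330 to 0.731), and with the replicate number as a block 6 members passed, beside 11.2% of all genes. These were Ddit4 and Kdm3a, which were higher in shTet2, and Pgam1, Slc16a1, Egln1 and Vegfa, which were lower. Without the 4 libraries rich in receptor reads 2 members (Slc16a1 and Pgam1) passed under the block, beside 3.05% of all genes, and 1 (Pgam1) without it, beside 1.77%.

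Slc16a1 stood at 12.10, 12.10, 12.19, 11.89 and 12.50 in shTet2, below all shTet1 libraries, which began at 12.51. The difference was -0.59 ± 0.17 (SE; limma adjusted p = 0.0576, under the block 0.00117; exact permutation p = 0.00794). Pgam1 in shTet2 was also below the whole shTet1 range, where replicates 1 to 5 were at 13.40, 13.39, 13.34, 12.93 and 13.25. It differed by -0.77 ± 0.22 (SE; limma adjusted p = 0.0586, under the block 0.000241; exact permutation p = 0.00794). The differences of these 2 genes within replicates 1 and 2 and within replicates 3 to 5 were alike, at -0.51 and -0.65 for Slc16a1 and at -0.73 and -0.80 for Pgam1.

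Ddit4 was at 8.50, 8.85, 7.94, 8.01 and 7.20 in shTet1, and the shTet2 libraries were higher in 5 of 5 pairs, by 1.01 ± 0.30 (SE; limma adjusted p = 0.0618, under the block 0.00157). Kdm3a was at 12.64, 12.75, 13.33, 12.90 and 13.24 in shTet2. It was 0.41 ± 0.17 (SE) above shTet1 (limma adjusted p = 0.243, under the block 0.0385). For Egln1 the difference was -0.53 ± 0.23 (SE; 0.246, under the block 0.0151) and for Vegfa -0.63 ± 0.30 (SE; 0.304, under the block 0.0236). Ldhb, which was above shScr in both knockdowns, differed between them by -0.28 ± 0.27 (SE), with an interval from -0.84 to 0.28. Single libraries moved Slc16a1, Pgam1 and Ddit4 across the threshold without the block. Without shScr replicate 4 the limma adjusted p was 0.0330 for Slc16a1 and 0.0190 for Pgam1, and Slc16a1 also passed without shScr replicate 5 (0.0471) or shTet2 replicate 5 (0.0350). Ddit4 passed without shTet1 replicate 2 (0.0345) or shTet2 replicate 5 (0.0171). Other omissions moved these genes away from the threshold. Without shTet2 replicate 4 the limma adjusted p was 0.142 for Slc16a1, 0.14 for Pgam1 and 0.152 for Ddit4.

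**Figure D3:**
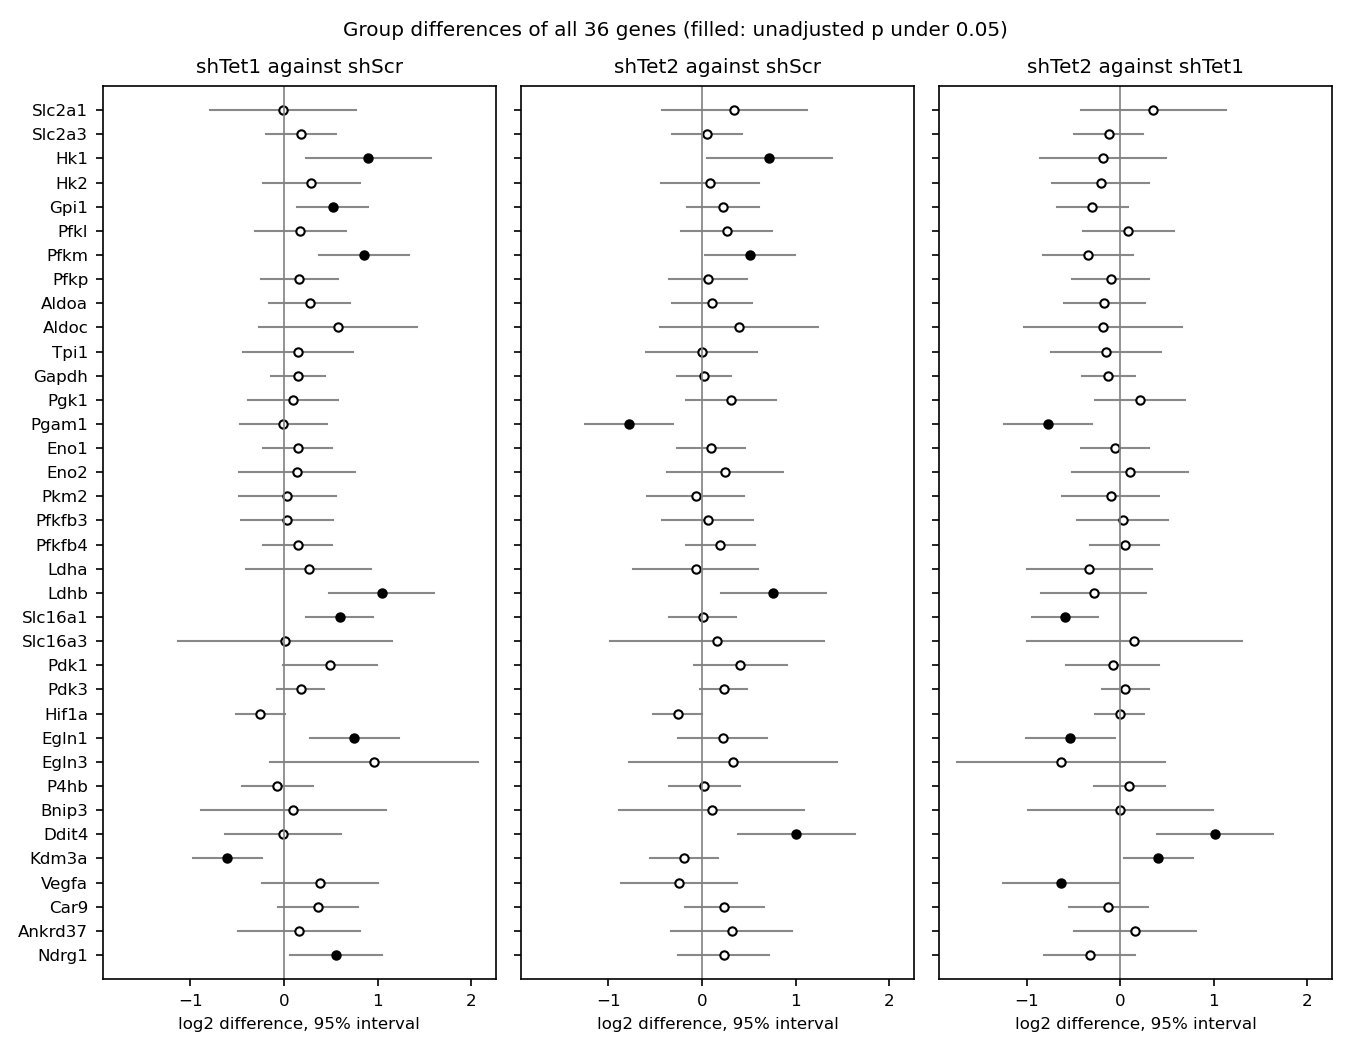
Differences of all 36 genes in the 3 comparisons on the log2 scale, with 95% intervals from the fit without the replicate block. Filled points have an unadjusted p under 0.05 (8, 5 and 6 genes), and no gene passed the adjusted threshold.

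A larger difference in these genes ran across the groups. Replicates 1 and 2 of all 3 groups (6 libraries) stood apart from replicates 3 to 5 (9 libraries), a split that the labels do not mention, that was seen in these values and that is described here with no test. After each group's mean had been subtracted, 29 of the 36 genes were higher in replicates 1 and 2, and the median difference was 0.42, against -0.03 over all genes, of which 45.6% were higher. The values of replicates 1 and 2 lay wholly above those of replicates 3 to 5 for 8 members (Slc2a1, Pfkm, Tpi1, Pgk1, Slc16a3, Pdk1, Egln3 and Bnip3), or 22.2%, where 2.31% of all genes did. No member lay wholly below, where 2.50% of all genes did. The count was 8, with the same genes, without the 4 libraries rich in receptor reads and without replicate 4 of all groups, where 4.81% and 4.41% of all genes lay wholly higher, and was 13 (12 higher, 1 lower) when shScr replicate 2 was left out, where 3.66% of all genes lay wholly higher. Leaving out shScr replicate 4, shTet1 replicate 4 or 5, or shTet2 replicate 1 or 2 gave 7, where 2.24% to 2.43% of all genes lay wholly higher. Slc2a1 was then the gene that was lost. The median over the 36 was 0.31 without replicate 4 of all groups.

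Egln3, which HIF is known to induce strongly, and Slc16a3 differed most, and their order changed between settings (1.64 and 1.65 with quantile normalisation). The Egln3 gene lies at chr12:55279968-55304847 (minus strand). Egln3 was at 8.73 and 7.92 in replicates 1 and 2 of shScr and at 7.84, 6.97 and 7.08 in replicates 3 to 5. In shTet1 it was at 10.55 and 9.62 against 8.03, 7.73 and 7.41, and in shTet2 at 9.12 and 8.80 against 7.78, 7.19 and 7.29. Replicates 1 and 2 were higher in each group, by 1.03, 2.36 and 1.54 for shScr, shTet1 and shTet2, and over all libraries by 1.65 ± 0.52 (SD of libraries within sets).

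Slc16a3, the lactate exporter of highly glycolytic cells, was at 10.14 and 10.27 in replicates 1 and 2 of shScr and at 9.09, 7.44 and 9.05 in replicates 3 to 5. The corresponding values were 10.16 and 9.98 against 8.88, 8.18 and 8.83 in shTet1. In shTet2 they were 10.47 and 10.36 against 9.40, 7.60 and 8.96. Replicate 4 was the lowest library in every group, and the difference of 1.63 ± 0.63 became 1.20 without the 3 replicates 4.

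Bnip3 was at 10.75 and 10.75 against 10.08, 8.84 and 9.53 in shScr. It was at 11.23 and 10.71 against 9.60, 9.28 and 9.64 in shTet1, and at 11.32 and 10.97 against 9.89, 8.76 and 9.52 in shTet2. The difference was 1.49 ± 0.43, or 1.24 without the replicates 4, and 2.85-fold in normalised reads (mean of the ratios in the 3 groups).

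Aldoc, the fourth by size of the difference (1.06 ± 0.54), had unequal differences in the groups. Its shScr libraries were at 7.83, 7.38, 7.77, 7.38 and 7.17, with a difference between the sets of 0.16. In shTet1 it was at 9.23 and 8.81 against 7.53, 8.11 and 6.74, and in shTet2 at 8.80 and 8.74 against 7.24, 7.59 and 7.11. These were differences of 1.56 and 1.46, and whether they exceeded that of shScr was not tested.

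By role, the median difference between the replicate sets was 0.57 for the 2 glucose transporters, 0.47 for the 15 glycolytic enzymes, 0.34 for the 2 pyruvate dehydrogenase kinases, 0.49 for the 7 HIF targets and 0.27 for both the 4 genes of lactate and the 4 genes of oxygen sensing. It was 0.03 for Pfkfb3 and Pfkfb4. Slc2a1 differed by 0.94, or by 0.59 without replicate 4, and Slc2a3 by 0.21. Among enzymes, Aldoc was followed by Tpi1 (0.82), Pgk1 (0.72), Eno2 (0.69) and Pfkm (0.66), with Eno1 (0.11) and Hk1 (0.07) last. Pgk1 had the smallest spread within sets (SD 0.14), with values from 12.46 to 13.12 in replicates 1 and 2 and from 11.72 to 12.23 in replicates 3 to 5, with no group subtracted. Pdk1 differed by 0.70 and Pdk3 by -0.02. The genes with negative differences were Kdm3a (-0.37), Slc16a1 (-0.15), Pfkfb3 (-0.15), Hif1a (-0.14), Ldhb (-0.10), P4hb (-0.05) and Pdk3. Without replicate 4 of all groups, Eno1 turned to -0.09 and Ldhb to 0.18.

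**Figure D4:**
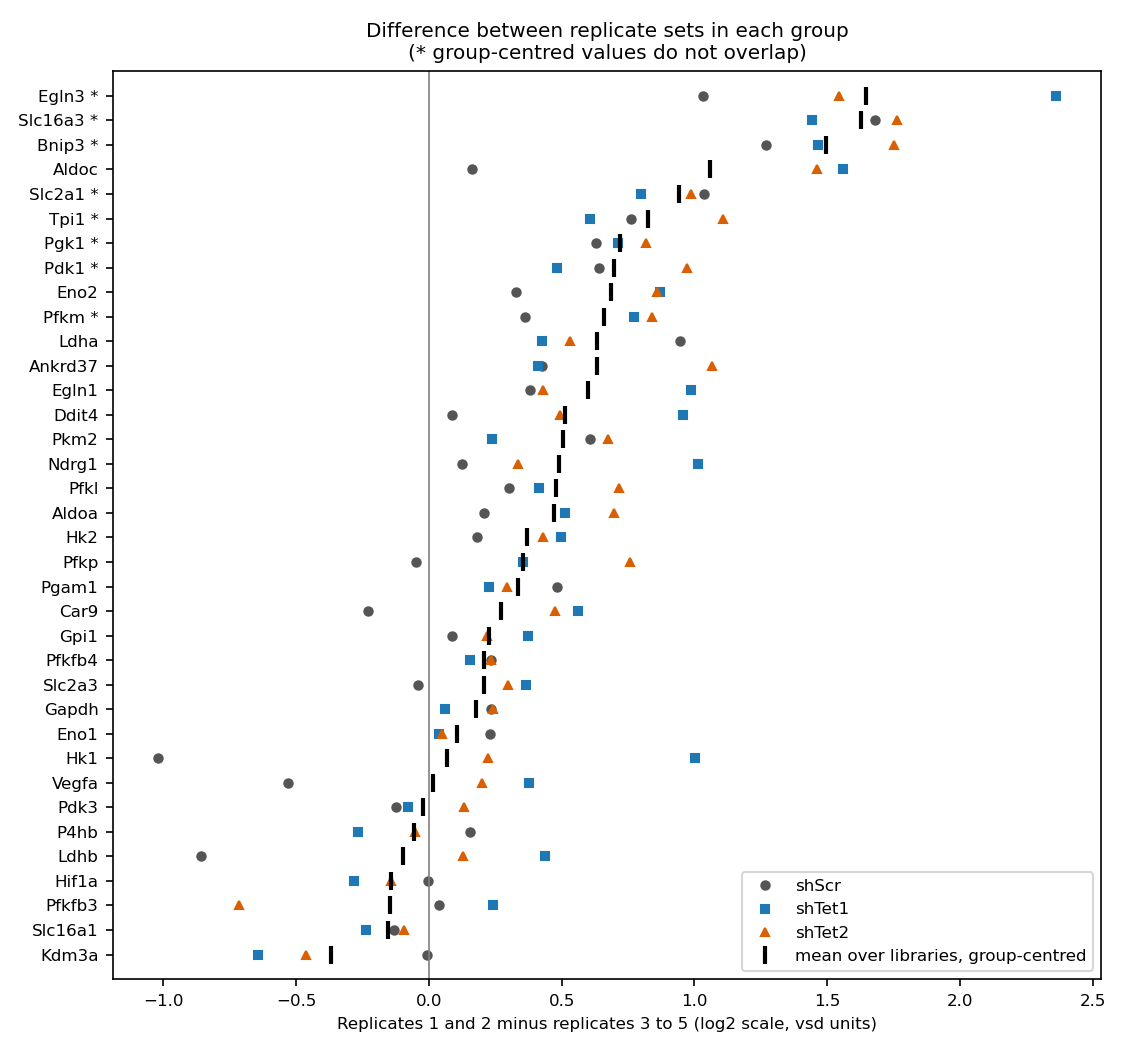
Mean of replicates 1 and 2 minus mean of replicates 3 to 5 for each of the 36 genes, on the log2 scale, in each group (symbols) and over all libraries after subtracting the group mean (bars). Egln3, Slc16a3 and Bnip3 lie at 1.49 to 1.65, and 29 genes are above 0.

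**Figure D5:**
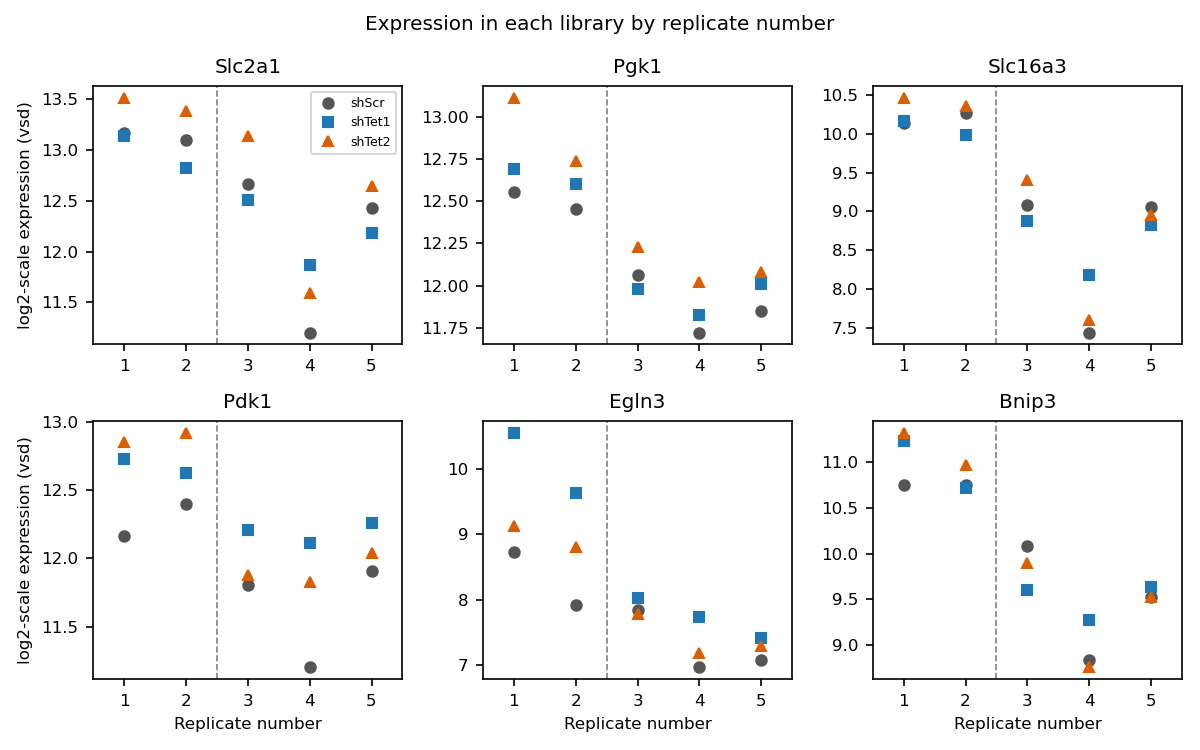
Variance-stabilised expression (log2 scale) of 6 genes against replicate number in the 3 groups, with a dashed line between replicates 2 and 3. Slc16a3 and Bnip3 are lowest in replicate 4 of every group, and Pgk1 in replicates 1 and 2 (12.46 or more) is above all libraries of replicates 3 to 5.

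The sequence upstream of the start site was examined because 8 of the genes had replicate sets that did not overlap. RefSeq promoter windows (GRCm38.p6) were matched to 34 of the 36 genes, without Ndrg1 and Slc2a3, with Pkm2 matched as Pkm, and the 250 bases before each start were searched on both strands for ACGTG, the core of the known HIF-binding element. It was present in at least 1 window of 21 of the 34 genes (61.8%), against 18.5% of all 27025 genes with a window and 23.1% of the 12588 that were tested here. The windows of the 34 genes also held more CpG dinucleotides (median 18, against 6 for all genes), and the part of this in the difference was not tested. The genes were chosen from pathways that HIF is known to regulate, and the part of that choice was not tested either. These shares of all genes do not bear on the replicate sets. The other core, GCGTG, was in 23 of the 34 (67.6%), against 30.9% of all genes and 44.8% of those tested. The E-box CACGTG, which contains ACGTG on both strands, was in 6 of the 34 genes (17.6%), against 6.86% of all genes and 9.18% of those tested. Of the 8 genes whose replicate sets did not overlap, 6 held ACGTG and Tpi1 and Pdk1 did not, and 4 held GCGTG. Windows around it are shown for 5 of these 6, read along the gene's strand, with the motif of either strand in capitals. They are shown so that the motif can be read in its surroundings. Pfkm is left out because 2 of its 4 start sites have no motif.
Slc2a1: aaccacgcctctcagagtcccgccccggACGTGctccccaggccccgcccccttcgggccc
Pgk1: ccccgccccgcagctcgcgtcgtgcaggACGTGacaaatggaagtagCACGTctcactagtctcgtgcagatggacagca
Slc16a3: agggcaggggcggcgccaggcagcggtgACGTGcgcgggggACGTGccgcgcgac
Egln3: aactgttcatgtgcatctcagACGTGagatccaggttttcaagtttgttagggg
Bnip3: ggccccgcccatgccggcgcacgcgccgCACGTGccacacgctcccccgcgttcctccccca
The window of Slc2a1 lies at chr4:119108681-119108741 (plus strand), with the first base of the motif at position -36 from the start. That of Pgk1 is at chrX:106186922-106187001 (plus), with motifs at positions -150 and -131. Slc16a3 has a pair at positions -27 and -14, at chr11:120949012-120949066 (plus). In Egln3 the motif begins at position -229, at chr12:54204071-54204124 (minus), and in Bnip3 it forms the E-box at position -108, at chr7:138909581-138909642 (minus). A match describes these letters and not a bound site. Hif1a, Slc16a1, P4hb, Pfkfb3 and Pdk3, whose set differences were negative, held ACGTG as well.

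Other genes of the same pathways were taken from 2 further lists. Of 50 other genes of glycolysis and pyruvate use, 47 were tested, and their median difference between the replicate sets was 0.00. Here 4 lay wholly higher in replicates 1 and 2 (among them Slc2a6 by 0.70 and Slc2a8 by 1.03, which encode other sugar transporters) and 3 wholly lower (Slc16a7, a monocarboxylate transporter gene, Dld, a subunit of pyruvate dehydrogenase, and 9630033F20Rik). None of 56 other hypoxia response genes lay wholly higher or lower, and their median was 0.11. Over all genes, 2.31% lay wholly higher and 2.50% wholly lower. Whether the medians of the 36 genes and of these lists differ was not tested.

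In the knockdowns, 0 of 47 and 0 of 56 genes of these lists passed in shTet1 against shScr, beside 0.0718% of all genes. An unadjusted p under 0.05 was reached by 7 and 9 of them, against 11.8% of all genes. The smallest p was that of Pcx, the pyruvate carboxylase of gluconeogenesis (-0.58 ± 0.14 SE; limma adjusted p = 0.094), followed by Tkt, the transketolase of the pentose phosphate pathway (0.59 ± 0.15 SE; adjusted p = 0.104). With the replicate block 4 genes of each list passed, beside 4.80% of all genes. Tkt, Bhlhe40 and Mxi1 were higher and Pcx, Fbp2, Pfkfb2, Igfbp3 and Narf lower in shTet1. Bhlhe40, a transcriptional repressor gene, differed by 1.38 ± 0.48 (SE; adjusted p = 0.0172 with the block, 0.241 without). In shTet2 against shScr, 1 gene of each list passed, beside 0.390% of all genes, and both were lower. These were Rpe, an epimerase of the pentose phosphate pathway (-1.03 ± 0.17 SE; limma adjusted p = 0.0137), and Narf (-0.70 ± 0.13 SE; 0.0272). Between the knockdowns, Pcx (0.80 ± 0.14 SE; 0.00182) and Fbp2, a fructose bisphosphatase gene (0.95 ± 0.26 SE; 0.0461), were higher in shTet2 and Rpe was lower (-0.68 ± 0.17 SE; 0.0285). Of the hypoxia list, P4ha2, a collagen prolyl hydroxylase gene (0.84 ± 0.15 SE; 0.0022), Igfbp3 (0.93 ± 0.18 SE; 0.00411) and Tmem45a (0.81 ± 0.23 SE; 0.0473) were higher in shTet2. Over all genes, 4.24% passed in this comparison, and 11.2% with the block. With the block 6 genes of the glycolysis list (3 higher, 3 lower) and 9 of the hypoxia list (8 higher, 1 lower) passed.

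Markers of other cell types were read beside these results, as RPKM. In replicates 1 and 2 and in replicates 3 to 5, respectively, the summed level of the 9 primitive endoderm markers was 15.0 to 38.8 and 20.3 to 29.7, and that of the 8 fibroblast markers 2.11 to 8.76 and 2.84 to 30.7. The 8 trophoblast markers summed to 9.72 to 26.8 in shScr, 12.3 to 15.1 in shTet1 and 13.6 to 47.1 in shTet2, and to at most 16.3 in replicates 1 and 2. Of these, Krt18 ran from 6.2 to 43.3 over the 15 libraries, and none of the others exceeded 6.72 (Ascl2). The 5 epiblast markers summed to 85.4 to 156 and 48.3 to 128, of which most was Dnmt3b, and Otx2 was wholly higher in replicates 1 and 2. So were Sox2 of the ESC markers and Ascl2 of the trophoblast markers, and Fbxo15 of the ESC markers was wholly lower. Tpbpa and Lum were at 0 in all 15 libraries. Among the groups, primitive endoderm markers had a median difference of -0.65 in shTet2 against shScr. Of these 9 markers, 0 passed the adjusted threshold (0.390% of all genes) and 6 had an unadjusted p under 0.05 (11.6% of all genes). The fibroblast markers summed to 2.11 to 24.4 in shScr, 3.35 to 5.67 in shTet1 and 7.03 to 30.7 in shTet2, wholly above shTet1. Over the 15 libraries Thy1 ran from 1.36 to 5.19 and Acta2 from 0.0296 to 27.1, and none of the others exceeded 1.46 (Fbln2). Col1a1, Col1a2, Col3a1, Dcn and Lum had medians of at most 0.0769. The median difference of the fibroblast markers was 0.48 in shTet2 against shScr and 0.47 against shTet1. Of the 7 tested, 0 passed the adjusted threshold in each comparison, where 0.390% and 4.24% of all genes did. Against shTet1 and under the block, where 11.2% of all genes passed, Dab2 and Pdgfra of the endoderm markers were lower in shTet2. Fbln2 and Acta2 of the fibroblast markers and Krt7 of the trophoblast markers were higher. Of the ESC markers, Fbxo15 was higher (0.84) and Dppa5a lower (-0.46). Otx2, Ascl2 and Eomes passed as well, in the directions given below. The ESC markers summed to 3130 to 3520 in shScr, 3520 to 4150 in shTet1 and 2850 to 3750 in shTet2. Between the knockdowns, Otx2 (1.01) and Ascl2 (0.88) were higher and Eomes (-0.94) lower in shTet2 (adjusted p = 0.0192, 0.0312 and 0.0185). The part of any of these markers in the results above was not tested. In bulk RNA, fewer cells with a transcript and less transcript per cell cannot be told apart.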

How the data were processed

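Total RNA of 15 libraries was sequenced from directional, rRNA-depleted libraries. The authors trimmed the reads with Trim Galore 0.3.3, aligned them to mm9 with TopHat 2.0.9, counted them per gene in Seqmonk and deposited variance-stabilised values made with DESeq2, on a log2 scale. Inverting it recovered whole reads in 100% of the values checked (tolerance 0.05). The check left out the highest values, which were rounded to whole reads. The recovered reads served for depth, levels per length and voom. The labels name 2 RNA extraction methods without assigning them to libraries, and no batch is labelled. The table of repeat classes was not used here.

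Differences were computed with limma 3.58.1 in R 4.3.3 (variance trend, group as the only term, all 15 libraries, two-sided), with Benjamini-Hochberg adjustment over 19490 genes and a threshold of 0.05. The fit was tested on artificial data with known changes. An exact permutation test of 5 against 5 libraries (two-sided; smallest p 0.00794) was added for named genes. Replicate numbers were taken as pairs where every pair's deviations correlated above 0.1. This held for shTet1 with shScr and shTet2 with shTet1. It failed for shTet2 with shScr through replicate 3 alone (0.00789), while replicates 1, 2, 4 and 5 had correlations of 0.4 to 0.769. Correlations between replicates of different number were not computed. The part of the split between replicate sets in the correlations of same-numbered replicates was not tested. In each fit with the block all groups shared it, so its p-values take these numbers as pairs. The 36 genes and the lists were chosen with earlier results of these data known. Values are given in every library for the 4 genes with the smallest unadjusted p in a comparison and the 4 with the largest difference between replicate sets. Egln1, Egln3 in shTet1, Pdk1, Gpi1 and Vegfa were added because they passed under the block. Copies were searched with megablast in mm9, and lengths came from GENCODE M1. Alternatives tried were other filters, scalings, weights, covariates, voom, the block and leaving out libraries.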

Additional observations from a re-analysis of the deposited data

Results flagged for a closer look

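In each group of 5 libraries, a library whose gap to its nearest neighbour exceeded Dixon's 95% limit was singled out. Over 108 combinations of gene and group there were 9 such cases. The limit is set for about 1 in 20, but genes of 1 library are not independent, and the share over all genes was not computed. Of these 9 cases, 6 were in a replicate 4 and 5 of those in shScr replicate 4. That library was at 12.45 for Pgam1 (others 13.37 to 13.61), at 11.86 for Eno1 (12.58 to 12.83), at 13.27 for P4hb (13.85 to 14.03) and at 6.41 for Ankrd37 (7.49 to 7.71), and at 4.94 for Car9, for which the other 4 were at the minimum of 4.25. For Car9, with the other 4 tied at the minimum, any read in that library would have exceeded the limit. In shTet2, replicate 4 was at 11.64 for Pgam1 (12.63 to 12.74). Both are among the 4 libraries rich in receptor reads (59.5 and 63.4 RPM), whose part in these values was not tested. The remaining cases were shScr replicate 2 for Hk1 (7.71, others 9.25 to 9.58), shScr replicate 5 for Eno2 (5.78, others 6.46 to 6.69) and shScr replicate 3 for Ndrg1 (7.77, others 8.21 to 8.30).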

How the results depend on the processing

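The number of the 36 genes past the threshold was 0 in all 3 comparisons under either filter on low values and without the variance trend. The share of all genes that passed under the same setting is given in brackets. In shTet1 against shScr it became 8 with the replicate block (4.80%), 3 with the replicate set as covariate (1.35%) and 1 with the receptor share as covariate (0.498%). It was 0 to 1 when single libraries were left out (0.00513% to 0.877%). In shTet2 against shScr it became 2 with array weights (1.45%) and 4 with the replicate block (4.31%), which were Pfkm, Pgam1, Ldhb and Ddit4. There replicate 3 missed the limit for pairing (correlation 0.00789), whereas replicates 1, 2, 4 and 5 had correlations of 0.4 to 0.769. The number past the threshold was 0 to 1 with single libraries left out (0.0513% to 0.508%). It was 1 without the 4 libraries richest in receptor reads, with the block (0.344%) or without (0.0667%). With the block, Sox7, Dab2 and Pdgfra of the endoderm markers were lower and Thy1 and Fbln2 of the fibroblast markers higher in shTet2. Fbxo15 of the ESC markers, Krt7 of the trophoblast markers and Otx2 of the epiblast markers were higher as well. In shTet2 against shTet1 it was 1 with median centring (3.92%), 2 with quantile normalisation (3.80%), 3 with array weights (6.39%) and 2 with only the 2 groups compared (3.96%). It was 6 with the replicate block (11.2%), 4 with the replicate set as covariate (6.48%), 2 with the receptor share as covariate (5.09%) and 2 with voom (4.29%). It was 0 to 2 with single libraries left out (2.63% to 4.63%), and 1 without the 4 libraries (1.77%), or 2 with the block (3.05%). The cause was not tested. For genes without overlap between replicate sets, the brackets give the share of all genes that lay wholly higher. The count of 8 was 8 with median centring (1.66%), of which 6 were among the original 8, and 11 with quantile normalisation (2.54%). It ran from 7 to 13 with single libraries left out (2.24% to 3.66%). Leaving out the 4 libraries and leaving out replicate 4 of all groups were chosen after seeing the data. None of the 16 differences followed through all alternatives changed direction. Median centring moved the differences of shTet2 from shScr by -0.11 (median over the 36). Depth limits Car9 (at most 11 reads), Eno2 (15 to 150) and Pfkfb4 (18 to 79).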

Other observations

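For several genes the difference between shTet1 and shScr was larger within replicates 1 and 2 than within replicates 3 to 5, respectively 2.12 and 0.09 for Hk1, 1.76 and 0.43 for Egln3, 1.42 and 0.02 for Aldoc, 1.12 and 0.51 for Egln1, 1.09 and 0.20 for Ndrg1 and 0.93 and 0.02 for Vegfa. The value of Hk1 rests in part on shScr replicate 2. For Slc16a1 (0.53 and 0.64), Pdk1 (0.40 and 0.56) and Pfkm (1.10 and 0.69) the 2 values were closer. These genes were picked after their values were seen, and the difference between the replicate sets was not tested.

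Of 3 rows of copies that were tested, 2 differed in the direction of their gene where it passed under the block. Gm8910, which shares sequence with Pgam1, differed by -0.75 ± 0.23 (SE) between shTet2 and shTet1 (limma adjusted p = 0.0859, with the block 0.000543), and Gm1840, a copy of Gpi1, by 0.56 ± 0.19 (SE) between shTet1 and shScr (0.233, with the block 0.0395). Gm5506, a copy of Eno1, differed by 0.17, 0.06 and -0.12 in the 3 comparisons (adjusted p = 0.773, 0.952 and 0.848), and the copies of Gapdh were not tested. Where an aligner places equal hits at 1 position, near-identical rows may share reads. How reads were divided between a gene and its copy was not tested.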
